A study of Mus musculus with 4 samples.

Results

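Translation initiation and elongation factors are the proteins that bring ribosomes to messenger RNA, place them at the start codon and carry them along the message. The genes described here were taken by name from the authors' deposited table of genes, as every tested gene whose symbol starts with Eif or Eef and a digit, leaving out the Eif2ak kinases. The rule gave 59 genes of the 12634 tested genes and of the 23284 genes in all. In all 62 listed genes carry such a name, and 3 of them were not tested by the authors: Eef1a2, the eEF1A form of neurons and muscle, Eif4e1b, and Eif3j, whose row is shared with Gm9781 and whose level was 11.8 FPKM in WT and 16.4 in Srf KO. FPKM, the fragments of a gene scaled by its transcript length and by the library's mapped fragments, is the unit of every level below and can be compared between genes.

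The samples were neutrophils sorted from mouse bone marrow, 2 from WT mice and 2 from Srf KO mice, gated by the submitters on high Gr1, high 7/4 and high side scatter and described by them as mature. SRF, serum response factor, recognises CArG boxes in promoters and controls genes of the actin cytoskeleton and the immediate-early response. The labels name no strain, age, sex, treatment, Cre driver or Srf allele, and do not say whether the samples of a genotype came from separate animals, so the p-values measure the spread between these samples, which may be technical. The authors' tables hold 1 pooled value per genotype, so neither depth nor the value in each sample was analysed here. Whether the samples of the genotypes overlap could therefore not be seen for any gene.

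In the classical scheme, eIF2 carries the initiator tRNA to the small ribosomal subunit together with eIF1, eIF1A, eIF3 and eIF5. The eIF4F complex, made of the cap-binding protein eIF4E, the scaffold eIF4G and the helicase eIF4A, recruits the message. eIF5B then joins the large subunit, eEF1A delivers each aminoacyl-tRNA, eEF1B recharges eEF1A with GTP, and eEF2 moves the ribosome on. Supply of eIF2 is limited by the eIF2 alpha kinases, and supply of eIF4E by the 4E-BPs, small repressors controlled by mTORC1. Many messages of this machinery begin with a C and a run of pyrimidines, the terminal oligopyrimidine (TOP) start through which mTORC1 controls their translation.

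Start sequences were read from RefSeq windows on GRCm38.p6, which were given for 46 of the 59 genes. They are shown for the genes of TOP type and for the genes set against them later, with 5 bases before the annotated start and 25 bases from it, and with the pyrimidine run that begins at the first transcribed base in capitals.
Eif3f: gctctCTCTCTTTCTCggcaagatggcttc
Eif2s3x: ttttcCTTTTCTCTCCgagcaagatggctg
Eif2s3y: cagccacttccttctttcgtgagcaagatg
Eef1a1: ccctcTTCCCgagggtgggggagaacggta
Eef2: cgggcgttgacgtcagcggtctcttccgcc
These lie at chr7:108934410-108934439 on the plus strand, chrX:94212627-94212656 on the minus strand, chrY:1010590-1010619 on the plus strand, chr9:78481700-78481729 on the minus strand and chr10:81176626-81176655 on the plus strand. A C followed by 4 pyrimidines exactly at the annotated first base was found in 2 of 46 members (4.35%), Eif3f and Eif2s3x, where the run was 11 bases long. The share among the 8891 tested genes with a window was 3%, and among all 27025 genes with a window 3.01%. In a wider scan, the whole motif could lie anywhere from 5 bases before the annotated start through the first 10 bases from it. It was then found in 12 of 46 members (26.1%) and in 23.7% of tested genes with a window. Annotated starts can lie some bases away from the start used in a cell, and these letters say nothing of the translation of a message.

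Eif2s1, which encodes the alpha subunit of eIF2, was the single member with a consensus CArG box on either strand in its 300-base promoter window (250 bases before to 50 after the start), 1 of 46 members (2.17%) beside 1.68% of tested genes. The stretch is shown because SRF binds CArG boxes, with the box in capitals, 106 to 97 bases before the annotated start, at chr12:78861941-78862000 on the plus strand of GRCm38.p6.
Eif2s1 promoter: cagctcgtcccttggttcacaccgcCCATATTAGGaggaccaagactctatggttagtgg
A second motif, CCGGAAG, the core that ETS-family factors bind, was found on either strand in 17 of 46 members (37%), beside 19.9% of tested genes with a window and 9.93% of all genes with one. Both searches were added after the data were seen and are descriptions of sequence, not of binding.

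Srf itself was 13.7 FPKM in WT and 0.439 in Srf KO, a log2 fold of -4.97, so the labels and the targeted gene go together. Log2 folds here are Srf KO over WT, and the standard error (SE) after each is the one implied by the authors' fold and test statistic. A gene was called where the adjusted p of the authors' test was at most 0.05. Of all tested genes, 35.5% were called in the authors' deposited table, 17.7% higher and 17.8% lower in Srf KO. Markers of other cells and of dividing cells moved with genotype too. Of the cell cycle markers 15 of 20 were called higher, with a summed level of 770 FPKM in WT and 1323 in Srf KO. Of the T and NK cell markers 16 of 17 were called higher (55.1 and 130.1 FPKM), of the erythroid markers 11 of 14 (179 and 285 FPKM), and of the megakaryocyte and platelet markers 8 of 12 (12.2 and 57.3 FPKM, with 1 marker listed at 0 in WT). The B cell markers had 5 of 10 called higher (113 and 175 FPKM), the stem and progenitor markers 8 of 11 (37.0 and 51.1 FPKM), and the monocyte and macrophage markers 8 of 13 higher and 3 lower (1366 and 1772 FPKM). Of 11 tested neutrophil markers 5 were called lower and 2 higher, with a sum of 42714 FPKM in WT and 31476 in Srf KO: Cxcr2, Csf3r, Mmp8, Mmp9 and Itgam were lower, and Mpo and Fcnb, genes of earlier neutrophil stages, were higher. Camp, Ltf, Ngp, S100a8 and S100a9 carry the authors' mark for too many reads to test. Apart from the 1 named, no tested marker of the other lists was listed at 0. The part of these differences in the results below was not tested.

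Among the 59 translation factor genes, 16 rose in Srf KO (27.1%, beside 17.7% of all tested genes), 6 fell (10.2%, beside 17.8%), and 37 were not called. The log2 fold was positive for 41 of 59 (69.5%, beside 53.8% of all tested genes), and its median was 0.20, beside 0.08 over all tested genes. Among genes at 5 FPKM or more in a genotype, 15 of 55 members were higher (27.3%, beside 15.5%) and 6 were lower (10.9%, beside 25.7%), and the medians were 0.20 for members and -0.10 for all such genes. The summed level of the 59 genes was 3918 FPKM in WT and 4727 in Srf KO. Since these are bulk samples, fewer cells of a type and less RNA per cell cannot be told apart.

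**Figure D1:**
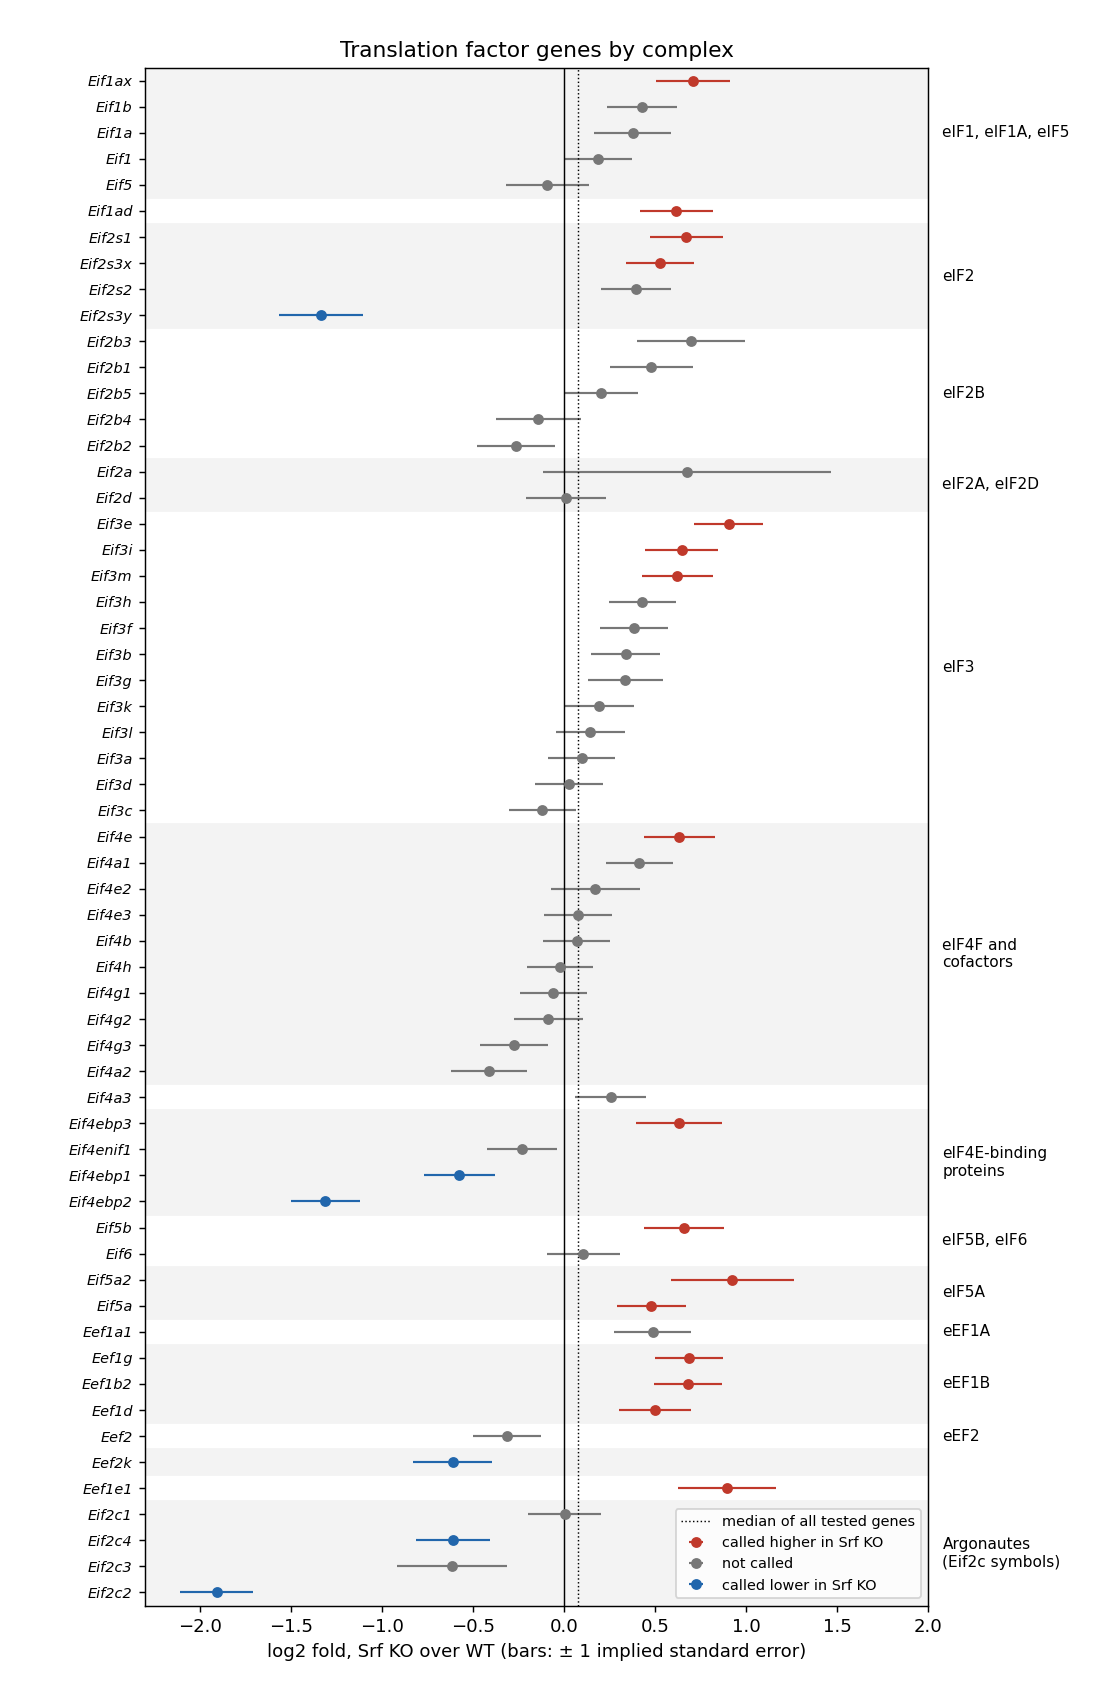
Log2 fold of each of the 59 genes, Srf KO over WT, grouped by complex, with bars of 1 implied SE on each side; red marks genes called higher (16), blue genes called lower (6) and grey genes not called (37). The dotted line is the median of all tested genes (0.08); the eEF1B and eIF5A genes lie to the right of it, and Eif2s3y, Eif4ebp2 and Eif2c2 lie farthest to the left.

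The levels of the members span a wide range, and their order was much alike in the 2 genotypes (Spearman's rho of WT and Srf KO levels across genes 0.945, n = 59 genes of the same pooled samples, which are not independent replicates). Eef1a1 was the most abundant in both, with 28.6% of the summed level in WT and 33.2% in Srf KO, and Eif1 was next. The loci of 11 members overlap another listed gene: of the called members Eif3m overlaps Ccdc73, Eif4e Mir1956, Eif5b Rev1 and Eef1b2 Snora41. The implied SE of the members had a median of 0.19 on the log2 scale, beside 0.24 for all tested genes. The smallest absolute log2 fold called among members was 0.48, and the largest not called was 0.70. Of the members not called, 9 had an adjusted p of at most 0.10 in the authors' deposited table: Eef1a1, Eif1b, Eif2b1, Eif2b3, Eif2s2, Eif3f, Eif3h and Eif4a1 with a positive fold, and Eif2c3 with a negative one.

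**Figure D2:**
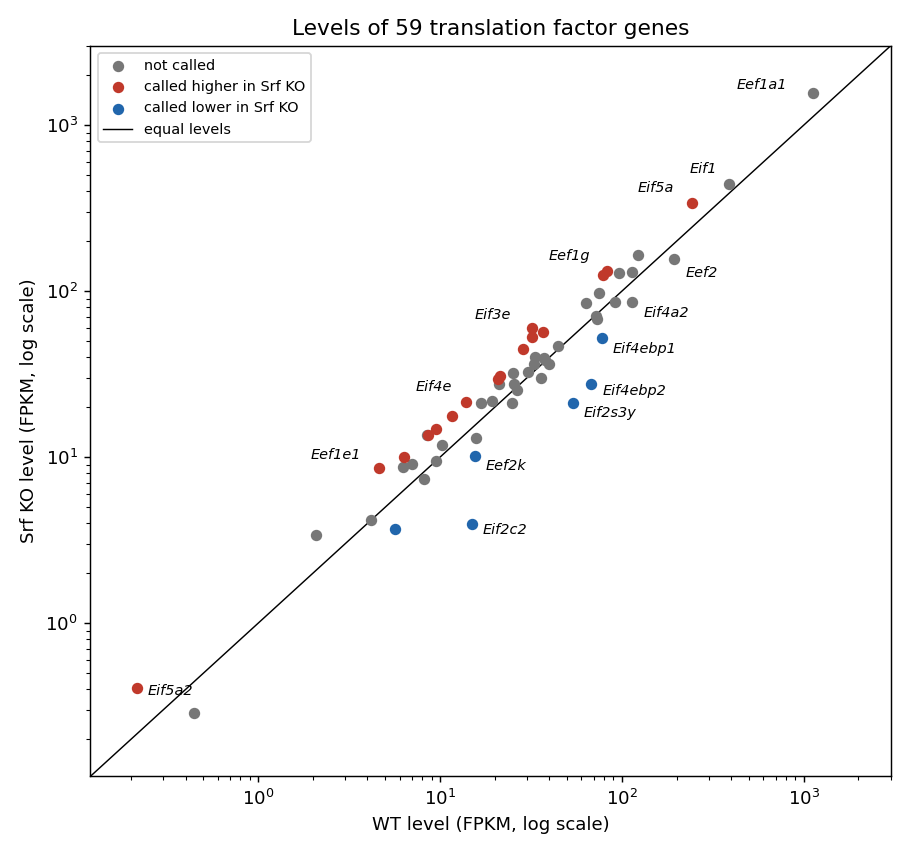
Level of each of the 59 genes in Srf KO against its level in WT, both in FPKM on log axes, 1 pooled value per genotype and no error bars; the line marks equal levels. Genes called higher (red) lie above the line and genes called lower (blue) below it, and Eef1a1 is highest on both axes (1119 and 1569 FPKM).

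Elongation factors were led by the eEF1B genes, which encode the exchange factor that reloads eEF1A: all 3 rose, though Eef1d lost its call with the threshold at 0.01, with centring, with the length adjustment described below or at a minimum of 1.5-fold. Their summed level went from 182 FPKM in WT to 288 FPKM in Srf KO. Eef1g, the gamma subunit that anchors the complex, was 82.7 FPKM in WT and 133 in Srf KO, a log2 fold of 0.69 ± 0.19 (adjusted p = 0.00134 in the authors' deposited table). Eef1b2, one of the catalytic subunits, was 78.4 and 126 FPKM, with a log2 fold of 0.68 ± 0.18 (adjusted p = 0.00144 in the authors' deposited table). Eef1d, the other catalytic subunit, was 20.9 and 29.5 FPKM (0.50 ± 0.20, adjusted p = 0.0363 in the authors' deposited table). All 3 folds thus lay between 0.50 and 0.69. Eef1a1, their substrate and the carrier of aminoacyl-tRNA, was 1119 and 1569 FPKM, a log2 fold of 0.49 ± 0.21 that missed the threshold (adjusted p = 0.0590 in the authors' deposited table).

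Eef2, the translocase, had a fold of the opposite sign: 195 FPKM in WT and 157 in Srf KO, -0.31 ± 0.19 and not called (adjusted p = 0.181 in the authors' deposited table). The level of Eef1a1 over that of Eef2 was 5.75 in WT and 10.01 in Srf KO. The log2 folds of Eef1a1 and Eef2 differed by 0.80 ± 0.28 (95% interval 0.25 to 1.36), one of 15 pairs compared; these differences are descriptions that take the SEs as independent. Eef2k, the kinase that inactivates eEF2, fell from 15.6 to 10.2 FPKM (-0.61 ± 0.22, adjusted p = 0.0187 in the authors' deposited table). Relative to Eef2, the Eef2k level was 0.0801 in WT and 0.0651 in Srf KO. Eef1e1, named for its likeness to eEF1 subunits but a scaffold of the complex of aminoacyl-tRNA synthetases, rose from 4.63 to 8.61 FPKM (0.90 ± 0.27, adjusted p = 0.00426 in the authors' deposited table).

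eIF5A, the hypusine-bearing factor that helps ribosomes through stalling sequences such as proline runs, is made by a pair of genes of very unequal level, and both rose. Eif5a was 244 FPKM in WT and 340.1 in Srf KO (0.48 ± 0.19, adjusted p = 0.0360 in the authors' deposited table). Eif5a2 was 0.215 and 0.409 FPKM (0.93 ± 0.34, adjusted p = 0.0218 in the authors' deposited table), the highest log2 fold of all members but at a level under 1 FPKM. Their folds differed by -0.45 with an interval from -1.21 to 0.31, so a difference between them was not detectable.

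eIF3, the many-subunit scaffold of the small ribosomal subunit, had 3 of 12 genes called higher (25%, beside 17.7% of all tested genes) and none lower (beside 17.8%). Of its folds 11 of 12 were positive (91.7%, beside 53.8% of all tested genes), with a median of 0.34. With the length adjustment described below, Eif3e alone of the 12 was called, 7 folds were positive and the median was 0.19. Its summed level was 566 FPKM in WT and 718 in Srf KO. Eif3e had the highest log2 fold of the members at 1 FPKM or more (chr15:43250040-43282736 on mm10): 32.2 FPKM in WT and 60.3 in Srf KO, 0.90 ± 0.19 (adjusted p = 2.76e-05 in the authors' deposited table). Eif3i was 28.6 and 44.8 FPKM (0.65 ± 0.20, adjusted p = 0.00594 in the authors' deposited table), and Eif3m was 36.7 and 56.5 FPKM (0.62 ± 0.19, adjusted p = 0.00639 in the authors' deposited table). The subunits with the smallest differences included Eif3a, the largest scaffold subunit (30.5 and 32.6 FPKM), Eif3d, which can bind the cap (38.0 and 38.7 FPKM), and Eif3c (39.9 and 36.7 FPKM, the single negative fold, -0.12). Eif3k, the most abundant subunit gene, was 114 and 130.5 FPKM (0.20, not called). Folds of the remaining subunits, Eif3b, Eif3f, Eif3g, Eif3h and Eif3l, lay between 0.15 and 0.43 and were not called. The 8 genes of the PCI and MPN core (Eif3a, c, e, f, h, k, l and m) had a median log2 fold of 0.29, and the 4 genes of the outer subunits b, d, g and i had 0.34.

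Of the genes that set the start codon, Eif1ax rose and 4 were not called. Eif1ax, one of the genes for eIF1A, was 32.3 FPKM in WT and 52.8 in Srf KO (0.71 ± 0.20, adjusted p = 0.00254 in the authors' deposited table). Its paralog Eif1a was 7.04 and 9.14 FPKM (0.38), and the difference of the pair, 0.33, had an interval from -0.24 to 0.91. The coding sequences of Eif1ax and Eif1a are 85.5% identical, with identical runs of up to 28 bases, so reads may not always be told apart. Eif1, the gatekeeper of start codon choice and the most abundant of this group, was 390 and 444 FPKM (0.19 ± 0.19), and Eif1b was 63.4 and 85.2 FPKM (0.43 ± 0.19). Eif5, the GTPase activator of eIF2, was 72.9 and 68.4 FPKM (-0.09 ± 0.23). Eif1ad, a protein with an eIF1A-like domain, rose from 11.6 to 17.8 FPKM (0.62 ± 0.20, adjusted p = 0.00888 in the authors' deposited table).

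Within eIF2 the subunit genes moved in opposite directions. Eif2s1, the alpha subunit phosphorylated in stress, rose from 8.57 to 13.7 FPKM (0.67 ± 0.20, adjusted p = 0.00417 in the authors' deposited table). Eif2s2, the beta subunit, was 21.1 and 27.8 FPKM (0.40 ± 0.19, not called). The gamma subunit, which holds the initiator tRNA, is encoded on both sex chromosomes in mouse. Eif2s3x rose from 21.4 to 30.8 FPKM (0.53 ± 0.19, adjusted p = 0.0175 in the authors' deposited table). Eif2s3y, on the Y (chrY:1010612-1028598 on mm10) and the most abundant of the group in WT, fell from 53.6 to 21.3 FPKM (-1.33 ± 0.23, adjusted p = 1.62e-07 in the authors' deposited table).

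The gamma subunit genes differed in log2 fold by 1.86 ± 0.30 (interval 1.28 to 2.45). Eif2s3y held 71.5% of their summed level in WT and 40.8% in Srf KO, and the sum itself was 74.96 and 52.1 FPKM. Of the 5 tested genes on the Y, 4 were called lower: beside Eif2s3y, Ddx3y, Uty and Kdm5d had log2 folds of -1.67, -1.68 and -1.69, and Xist, which is transcribed from the inactive X, was 0.0154 FPKM in WT and 4.92 in Srf KO. Of the 400 tested genes on the X, 71 were called higher (17.75%, beside 17.7% of all tested genes) and 61 lower (15.25%, beside 17.8%). Their median log2 fold was 0.19, beside 0.08 over all tested genes. Rps6ka3, an X-linked kinase gene described below, was among those called lower. Sex is not given in the labels, so sex and genotype cannot be told apart for Eif2s3x, Eif2s3y and Eif1ax. Since Xist and the Y-linked genes differed between the genotypes, the other members carry the same limit. The part of sex in their folds was not tested. Coding sequences of Eif2s3x and Eif2s3y are 86.3% identical over 1419 positions, with a longest identical run of 34 bases. In their start sequences, shown above, the pyrimidine run of Eif2s3x begins exactly at the annotated start and that of Eif2s3y just after it, so Eif2s3y holds the motif only in the wider scan.

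eIF2B, the exchange factor that reloads eIF2 with GTP, had no gene called among 5 in the authors' Cufflinks test (2, Eif2b1 and Eif2b3, had an unadjusted p under 0.05), and a summed level of 42.5 FPKM in WT and 44.4 in Srf KO. Its log2 folds ran from -0.26 ± 0.21 for Eif2b2, the most abundant (15.8 and 13.1 FPKM), to 0.70 ± 0.30 for Eif2b3, the least abundant (2.09 and 3.39 FPKM, adjusted p = 0.0535 in the authors' deposited table). Eif2b1 was 6.24 and 8.70 FPKM (0.48), Eif2b5 was 10.3 and 11.8 FPKM (0.20), and Eif2b4 was 8.15 and 7.39 FPKM (-0.14). The summed eIF2B level over the summed eIF2 level was 0.406 in WT and 0.475 in Srf KO, but without Eif2s3y, whose level moved with other Y-linked genes, it was 0.833 and 0.615, the opposite direction. Eif2a and Eif2d, which can deliver initiator tRNA without eIF2, were not called (8.48 and 13.5 FPKM for Eif2a, 9.47 and 9.54 FPKM for Eif2d). Eif2a overlaps the locus of Serp1, and its SE of 0.79 was the largest of all members.

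The genes of the cap-binding complex eIF4F and its helicase cofactors were counted with the paralogs Eif4e2, Eif4e3 and Eif4g2 among them. Of these genes, 1 of 10 rose (10%, beside 17.7% of all tested genes) and none fell (beside 17.8%). A positive fold was found for 5 (50%, beside 53.8%), and the median was 0.02. Eif4e, the cap-binding protein, rose from 13.9 to 21.6 FPKM (0.63 ± 0.19, adjusted p = 0.00511 in the authors' deposited table). Its paralogs Eif4e2 (19.3 and 21.8 FPKM) and Eif4e3 (37.5 and 39.6 FPKM) had folds of 0.17 and 0.08. The fold of Eif4e was above that of Eif4e3 by 0.56 (interval 0.03 to 1.08), while for Eif4e2 the interval, -0.15 to 1.07, spans 0. The eIF4G family genes Eif4g1 (26.5 and 25.4 FPKM), Eif4g2 (91.7 and 86.4 FPKM) and Eif4g3 (36.04 and 29.8 FPKM) had folds of -0.06, -0.09 and -0.27. The helicase cofactors Eif4b (44.6 and 46.8 FPKM) and Eif4h (71.7 and 70.7 FPKM) had folds of 0.07 and -0.02.

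The helicase eIF4A comes from a pair of paralogs, of which Eif4a1 was 123 FPKM in WT and 164 in Srf KO (0.41 ± 0.18, adjusted p = 0.0651 in the authors' deposited table). Eif4a2 was 114 and 85.8 FPKM (-0.41 ± 0.21, adjusted p = 0.110 in the authors' deposited table). Neither was called, but their folds differed by 0.83 ± 0.28 (interval 0.28 to 1.37), and the level of Eif4a1 over Eif4a2 was 1.08 in WT and 1.91 in Srf KO. Eif4a3, a related helicase of the exon junction complex, was 33.5 and 40.01 FPKM (0.26, not called).

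Genes of the repressors that hold eIF4E away from eIF4G moved in both directions: 2 fell, 1 rose and 1 was not called. Eif4ebp2 (chr10:61432497-61452669 on mm10) fell from 68.1 to 27.5 FPKM, a log2 fold of -1.31 ± 0.19 (adjusted p = 2.35e-10 in the authors' deposited table). Eif4ebp1, the best known target of mTORC1 in this family, fell from 77.5 to 52.0 FPKM (-0.57 ± 0.19, adjusted p = 0.0120 in the authors' deposited table). Eif4ebp3, the least abundant, rose from 9.52 to 14.8 FPKM (0.63 ± 0.23, adjusted p = 0.0239 in the authors' deposited table). Eif4enif1, which encodes the eIF4E transporter 4E-T, was 24.8 and 21.2 FPKM (-0.23, not called).

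The fold of Eif4ebp2 was below that of Eif4ebp1 by 0.74 ± 0.27 (interval 0.21 to 1.27), and that of Eif4ebp3 was above Eif4ebp1 by 1.21 (0.61 to 1.803). The 3 4E-BP genes together were 155 FPKM in WT and 94.3 in Srf KO, and Eif4ebp2 made up 43.9% of that sum in WT and 29.1% in Srf KO. Over the level of Eif4e, the summed 4E-BP level was 11.1 in WT and 4.36 in Srf KO. These are ratios of messenger RNA and say nothing of protein or of phosphorylation. Coding sequences of Eif4ebp1 and Eif4ebp2 are 69.1% identical, with no identical run over 14 bases.

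For subunit joining, Eif5b, the GTPase that joins the large subunit, rose from 6.35 to 10.03 FPKM (0.66 ± 0.22, adjusted p = 0.0106 in the authors' deposited table). Eif6, which keeps free large subunits apart from small ones, was 25.5 and 27.5 FPKM (0.11, not called). 

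The name rule also takes in the Argonaute genes under their older Eif2c symbols, which encode the small-RNA-binding proteins of RNA silencing and are not translation factors. Eif2c2, the gene for Ago2 (chr15:73101625-73184947 on mm10), had the lowest fold of all members, from 14.9 FPKM in WT to 3.99 FPKM in Srf KO (-1.91 ± 0.20, adjusted p listed as 0 in the authors' deposited table). Eif2c4 fell from 5.63 to 3.69 FPKM (-0.61 ± 0.20, adjusted p = 0.0108 in the authors' deposited table). Eif2c1 was 4.21 and 4.22 FPKM, and Eif2c3, at 0.444 and 0.290 FPKM, was not called. Eif2c2 was the most abundant Argonaute gene in WT, while in Srf KO Eif2c1 was slightly above it. Without the Argonautes, 16 of 55 members rose (29.1%, beside 17.7% of all tested genes) and 4 fell (7.27%, beside 17.8%), and the median log2 fold was 0.34. Split by symbol and not by step, the other 48 Eif genes, with Eif5a, Eif5a2 and Eif4a3 among them, had 12 higher (25%) and 3 lower (6.25%) with a median of 0.23. The 7 Eef genes, with Eef1e1 and Eef2k among them, had 4 higher (57.1%) and 1 lower (14.3%) with a median of 0.50.

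The authors' tables of isoforms, start-site groups and coding sequences describe the same samples at finer resolution and are not independent of the gene level. Among 76 tested isoforms of the members 17 were called higher and 4 lower, beside 13.1% and 14% of all tested isoforms (27.2% in either direction). For start-site groups the counts were 15 and 3 of 65 (beside 15.1% and 16.1%), and for coding sequences 17 and 4 of 69 (beside 14.4% and 15.8%, 30.2% in either direction). Eif2c2 and Eif2s3y, called lower as genes, were not tested by the authors in any of these tables and are missing from the lower counts. The more abundant Eef2k isoform and its start-site group were not tested either. Eif4a2 and Eif5 were not called as genes but held called isoforms. Conversely, Eef2k and Eif5a were called as genes and as coding sequences but had no called isoform or start-site group.

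For Eif4a2, the isoform NM_001123037 rose from 6.97 to 39.3 FPKM, a log2 fold of 2.50 ± 0.63 (adjusted p = 0.000692 in the authors' deposited table of isoforms). It was 6.10% of the Eif4a2 level in WT and 45.8% in Srf KO. NM_013506 went the other way, from 69.8 to 12.1 FPKM, but was not tested by the authors, and NM_001123038 was 37.6 and 34.4 FPKM (-0.13 ± 0.33, not called). In GENCODE M21 the transcript paired with NM_001123037 lacks the fourth exon of the other isoforms, at chr16:23109120-23109259 on the plus strand of GRCm38. That exon, shown because it separates the isoforms that moved apart, holds 140 coding bases, which is not a multiple of 3.
Eif4a2 exon 4: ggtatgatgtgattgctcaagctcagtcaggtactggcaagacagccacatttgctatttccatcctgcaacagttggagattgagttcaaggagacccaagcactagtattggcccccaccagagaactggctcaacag
Eif4a2 junction without it: tcccttgtattaaagATCCAAAAGGTAATT
In the junction, the end of exon 3 is in lower case and the start of the exon that follows exon 4 is in capitals. The annotated coding sequence of the isoform without exon 4 begins inside exon 3, with 63 coding bases there. The Eif4a2 locus also holds the small nucleolar RNAs Snord2 and Snora81, and it overlaps Rfc4. Snord2, listed at 165 FPKM in WT and 0 in Srf KO, has no fold and was not called. Snora81 was not called either (-1.56 ± 7.12). As listed, the Eif4a2 locus runs to chr16:23127730, beyond the last exon of its isoforms, which ends at 23114117. Strand is lost with this kit, so reads from a stretch that genes share cannot be assigned by strand. The part of Snord2, Snora81 and Rfc4 in the isoform estimates was not tested.

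For Eif5, the isoform NM_173363 fell from 66.3 to 31.2 FPKM (-1.09 ± 0.24, adjusted p = 6.32e-05 in the authors' deposited table of isoforms), from 90.9% to 45.6% of the gene. NM_178041 rose from 6.66 to 37.2 FPKM (2.48 ± 0.75, adjusted p = 0.00580 in the authors' deposited table of isoforms), from 9.13% to 54.4%. Both share a start-site group and a coding sequence in the authors' tables, and GENCODE M21 pairs both with 1 transcript, so the stretch in which they differ is not described here. The level of Eif5 as a gene was nearly equal in the genotypes, as given above. Its locus also overlaps the small nucleolar RNA Snora28, listed at 99.1 FPKM in WT and 46.2 in Srf KO (-1.10 ± 5.60, not called). The part of Snora28 in the Eif5 isoform estimates was not tested.

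**Figure D3:**
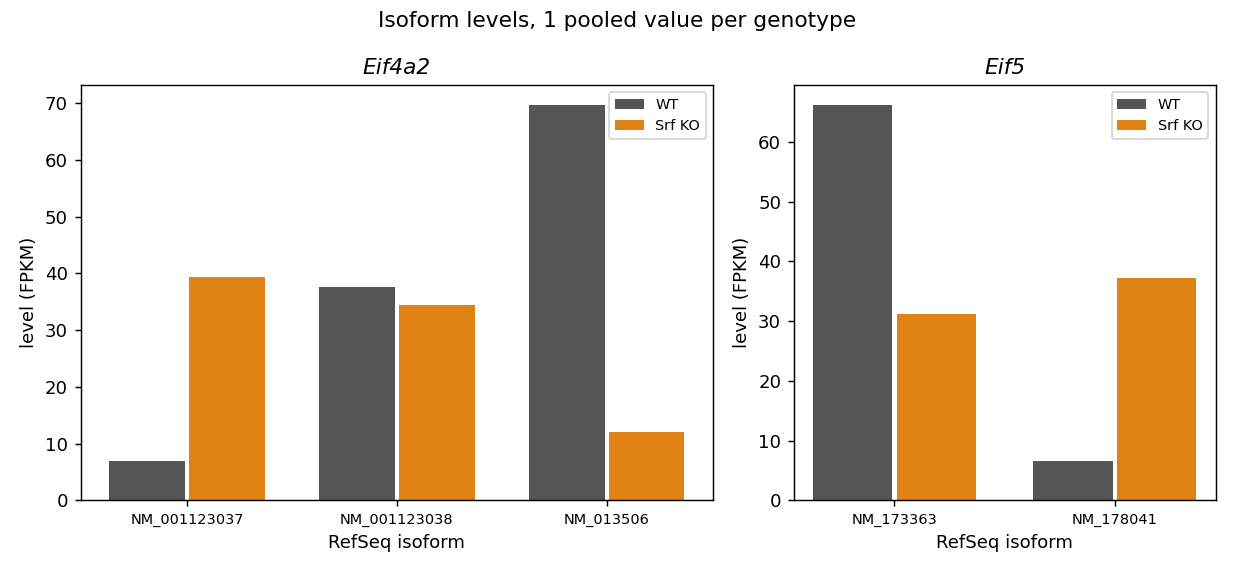
Levels in FPKM of the isoforms of Eif4a2 (left) and Eif5 (right) in WT (grey) and Srf KO (orange), 1 pooled value per genotype and no error bars. The most abundant isoform of each gene in WT is lower in Srf KO (69.8 to 12.1 FPKM for NM_013506, which the authors did not test, and 66.3 to 31.2 FPKM for NM_173363), the least abundant in WT is higher, and NM_001123038 is 37.6 and 34.4 FPKM.

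Fold and transcript length went together in these libraries, in members and in all genes alike. Spearman's rho of log2 fold with transcript length was -0.272 across the 59 members and -0.237 across 12445 tested genes with a length, which share libraries and are not independent. The median transcript length was 2312 bases for members and 2713 bases for all tested genes. The median log2 fold was 0.38 for the 30 shorter members and 0.08 for the 29 longer ones. With all tested genes cut into 4 equal groups by length, the median in the shortest, up to 1681 bases, was 0.43 for 15 members and 0.33 for all genes. In the next group, up to 2713 bases, it was 0.39 for 21 members and 0.14 for all tested genes. In the remaining groups the medians were 0.02 for 10 members beside -0.0014 for all genes, and -0.06 for 13 members beside -0.18. With the running median of genes of like length taken off, the median of the members was 0.14. Under that adjustment, in which p-values were recomputed from the implied SE, 15 of the 22 calls were kept. Eif3i, Eif3m, Eef1d, Eif5a, Eif4ebp3, Eef2k and Eif2c4 were no longer called, and Eif4a2 was called lower. Of the 12445 tested genes with a length, 14.6% were then called higher and 18.4% lower, in place of 17.7% and 17.8% of all tested genes.

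**Figure D4:**
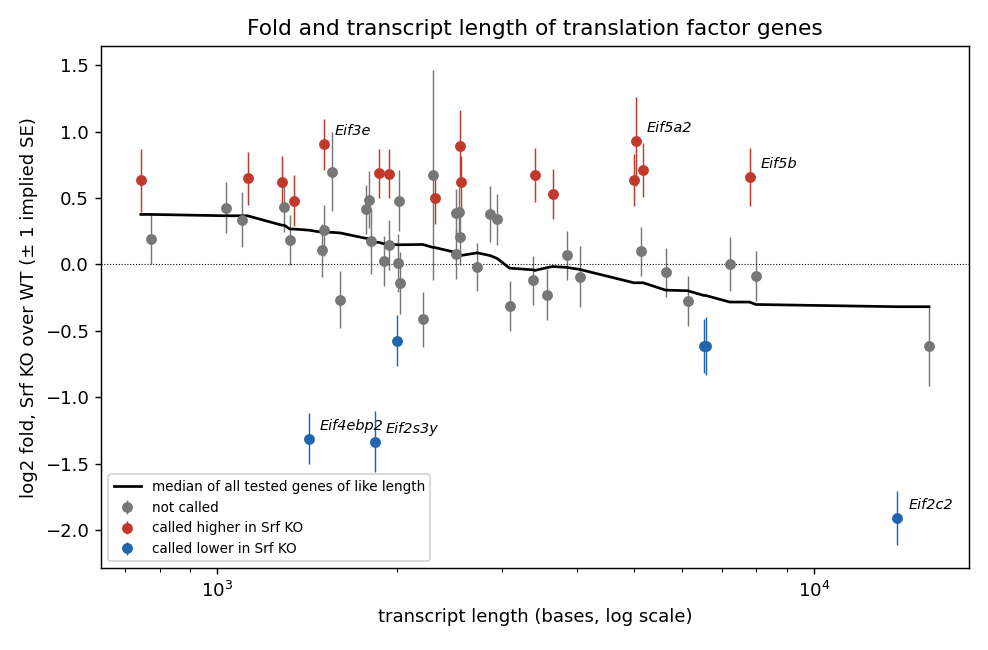
Log2 fold of the 59 genes, Srf KO over WT, against transcript length in bases on a log axis, with bars of 1 implied SE on each side; red, blue and grey mark called higher, called lower and not called. The black line is the median of all tested genes of like length and slopes from above 0 for short transcripts to below 0 for long ones; Eif3e, Eif5b and Eif5a2 lie above it and Eif4ebp2, Eif2s3y and Eif2c2 below it.

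Genes that control or assist these factors were looked at in lists of their own. Among the 4 eIF2 alpha kinases, which phosphorylate Eif2s1, 1 was called lower and none higher. Eif2ak3, the kinase PERK of the endoplasmic reticulum, fell from 22.2 to 11.5 FPKM (-0.94 ± 0.19, adjusted p = 7.71e-06 in the authors' deposited table), while Eif2ak1, the most abundant, was 31.0 and 35.2 FPKM and not called. Of 8 genes of the integrated stress response, which follows eIF2 phosphorylation, 3 fell and 2 rose, with a median of -0.45. Atf4, its main transcription factor, rose from 64.8 to 97.5 FPKM (0.59 ± 0.18), while the genes Sesn2 (20.7 and 5.82 FPKM, -1.83 ± 0.21) and Ddit3 (35.3 and 16.7 FPKM, -1.08 ± 0.33), known as targets in this pathway, fell. Chac1 fell from 7.06 to 4.12 FPKM (-0.78 ± 0.25), and Asns, asparagine synthetase, rose from 12.7 to 18.2 FPKM (0.52 ± 0.21). Ppp1r15b, the most abundant of the list, was 66.3 and 53.9 FPKM and not called.

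A list of 16 genes joined the mTORC1 and S6 kinase pathway, which acts on the 4E-BPs, eIF4B and Eef2k, with the MNK and RSK kinases, which act on eIF4E, eIF4B and Eef2k downstream of MAP kinases. Of the list 5 fell and 1 rose, with a median of -0.11, and all 4 MNK and RSK genes were among those that fell. Of the other 12 genes, Tsc2 fell and Larp1 rose. Mknk1, a kinase of eIF4E, fell from 63.4 to 27.6 FPKM (-1.20 ± 0.19), Rps6ka3 from 22.3 to 9.84 FPKM (-1.18 ± 0.21) and Rps6ka1, the most abundant, from 146 to 84.3 FPKM (-0.79 ± 0.18). Mknk2 was the remaining one of the 4. Larp1, which binds TOP messages, was 11.0 and 15.4 FPKM (0.49 ± 0.19). Mtor itself was 4.86 and 3.68 FPKM and not called.

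The cytosolic aminoacyl-tRNA synthetases and their scaffolds, which charge the tRNAs that eEF1A carries, had 4 of 22 called higher and none lower, with a median of 0.36. Farsb (4.92 and 8.35 FPKM, 0.76 ± 0.23), Eprs (5.50 and 9.04 FPKM, 0.72 ± 0.20) and Aimp1 (19.9 and 31.4 FPKM, 0.66 ± 0.21) had the largest of these folds, and Dars, the most abundant, was 57.6 and 42.1 FPKM and not called. Of 9 release and recycling factors, 1 rose, Abce1, which splits ribosomes after termination (8.56 and 13.2 FPKM, 0.63 ± 0.20), and none fell; Mcts1, the most abundant, was 29.5 and 34.3 FPKM. Of 5 poly(A)-binding proteins and partners 1 rose, Pabpc4 (3.86 and 6.40 FPKM, 0.73 ± 0.29), and Pabpc1, the most abundant, was 212 and 243 FPKM and not called. Of 10 mitochondrial translation factors 1 rose, Guf1 (1.19 and 2.19 FPKM, 0.89 ± 0.26), and Tufm, the most abundant, was 12.96 and 13.7 FPKM. None of the 6 tested enzymes that make hypusine on eIF5A or diphthamide on eEF2 was called (1, Dph5, had an unadjusted p under 0.05), the median of that list was 0.22, and Dhps, the most abundant, was 10.5 and 11.6 FPKM. All of these calls are those of the authors' deposited table. The percentages called over all tested genes given above are the background for each list and for each complex.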

How the data were processed

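Messenger RNA was measured by RNA sequencing in 2 WT and 2 Srf KO samples, with groups taken from the genotype label. The TruSeq RNA kit v2, which loses the strand, was used per the labels' protocols. Per the submitters' processing notes the tools were CASAVA 1.8.1, TopHat2 2.0.0 and Cufflinks 2.0.0 with mm10; their settings are not given in the sources used here. Per the file headers, the 4 deposited tables hold genes, isoforms, start-site groups and coding sequences with 1 FPKM value per genotype. The log2 fold deposited by the authors is WT over KO and was turned here; a test statistic, a score deposited by the authors, stands beside it. The p-value and q-value are those the authors deposited. On all 4 tables it was checked that the p-value follows from the statistic as a two-sided normal test, and the q-value from a Benjamini-Hochberg adjustment over tested features, with calls at 0.05. Where a genotype is at 0 the deposited log2 fold is a placeholder, and those features were given no fold.

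Of 23284 genes, 12634 were tested; the rest are marked as too few reads (10467), low data (151), too many reads (6) or failed (26). A model was planned in case per-sample values were given, and the authors' own test in case the values were pooled. The values are pooled, so the authors' own test was used, and sequencing depth is unknown. The implied SE is the absolute log2 fold over the absolute statistic, and intervals are at 95%. Lists were described by counts and medians with no set test. The members, complexes and lists were chosen with earlier results of these data known. Named genes were all called members, the most abundant of each complex, the extremes at 1 FPKM or more, and for related lists the most abundant gene and up to 3 called genes; Atf4, Asns, Larp1, Mknk2, Tsc2 and Mtor were named after their values were seen. Transcript lengths, exons and coding sequences come from GENCODE M21 (GRCm38), with a length for 99.1% of tested genes and 100% of members. Start windows come from RefSeq on GRCm38.p6. Identity was counted on global alignments (Biopython 1.88). The length adjustment takes off the running median fold over 50 bins of length, 5 bins at a time. Calculations used Python 3.11.15, pandas 2.3.3 and scipy 1.17.1, and were tested on simulated data. Alternatives covered the call threshold, filters at 1 and 5 FPKM, a pseudocount of 1, centring, length, a 1.5-fold minimum, summed isoforms, and members left out. Start coordinates, which the tables give from 0, are printed from 1.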

Additional observations from a re-analysis of the deposited data

How the results depend on the processing

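At an adjusted p of at most 0.01, 10 members were higher and 3 lower in place of 16 and 6, and 13 of the 22 calls were kept. Of all tested genes 10.8% were higher and 13.1% lower at that threshold. There eIF2 had 1 gene higher, the 4E-BPs with 4E-T 0 higher and 1 lower, and the Argonautes 1 lower. At 0.10 all 22 were kept and 9 gained, where 22.5% of all tested genes were higher and 20.6% lower. At this threshold eIF1, eIF1A and eIF5 had 2 higher, eIF2B 2, eIF3 5 and eIF4F 2. Adjusted for transcript length, where 14.6% of all genes with a length were higher and 18.4% lower, eIF1, eIF1A and eIF5 had a median of 0.060. In that setting eIF3 had 1 gene higher, eIF4F 1 lower, the 4E-BPs 0 higher, and the Argonautes 1 lower with a median of -0.34. The Argonaute median was -0.33 on the log2(FPKM + 1) scale and -1.26 at 5 FPKM or more, where only 2 of them are left. Without members on X or Y, eIF2 had 1 higher and 0 lower, and eIF1, eIF1A and eIF5 had 0 higher. Without shared loci eIF4F had 0 higher. With a minimum of 1.5-fold, eIF2 had 1 higher and the 4E-BPs 1 lower, beside 15.9% of all tested genes higher and 14.8% lower. Centring, a shift of 0.08, left 19 of 22 calls and the 4E-BPs with 0 higher, beside 14.5% of all genes with a fold higher and 20.5% lower. Folds that changed sign were all of genes not called: under the length adjustment Eif1 -0.080, Eif2d -0.14, Eif3g -0.029, Eif3k -0.18, Eif3l -0.011, Eif3d -0.13, Eif4e3 -0.012, Eif4g1 0.14, Eif4g2 0.22 and Eif6 -0.13, and under centring Eif2d -0.067, Eif3d -0.051, Eif4e3 -0.00035, Eif4b -0.0090 and Eif2c1 -0.074. Members left out or fewer called genes follow from how these alternatives are built; otherwise the cause was not tested. On the log2(FPKM + 1) scale only the folds were recomputed and the authors' calls were carried over, so calls could not change. Summing isoforms gave back the gene-level folds with the same implied SE, so keeping all 22 calls is no separate check. No paired analysis was possible because the tables hold 1 pooled value per genotype, and leaving out replicates was not run for the same reason. With unknown depth and 2 samples per genotype, a gene that was not called is not shown to be equal.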
